A study of Drosophila montana and Drosophila virilis with 24 samples.

Results

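Eip71CD is the ecdysone-induced gene known in Drosophila melanogaster to encode the methionine sulfoxide reductase also called MsrA, and its transcript is followed here through cold in females of Drosophila montana and Drosophila virilis. It was chosen by its measured differences from the controls of each species, which were large after several cold treatments, so those differences are given as a description, with their errors and without a test. It is 1 of 218 genes on a custom array. Its 8 probes, of 1850 in all, form 4 pairs covering both orientations of 1 named fragment, so the probes share a target and are not independent of each other.

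Methionine residues are readily oxidised to methionine sulfoxide. MsrA reduces the S form of this product back to methionine, and an enzyme of the MsrB type, SelR in flies, reduces the R form, both drawing their electrons from thioredoxin. In D. melanogaster, Eip71CD was first described as a gene switched on by the moulting hormone ecdysone, and overexpression of MsrA in the nervous system has been reported to lengthen life and to protect against oxidative stress. The gene name is the one inside the probe names. The RefSeq gene table of the D. montana assembly ASM3504440v1 lists MsrA and SelR but not the older name, so the link between the probes and the enzyme rests on the name alone. No other measurement on the array bears on the enzyme's identity.

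The study used mature females aged 20 days, frozen 5 to 6 h into the light phase of a day with 22 h of light and 2 h of darkness. Every group consisted of 3 pools of 10 whole flies, with 1 array per pool, giving 15 arrays of D. montana and 9 of D. virilis. Controls stayed at 19°C for 20 days. Hardened flies were brought to 0°C for 1 h after 20 days in those conditions, and acclimated flies had 14 days in them followed by 6 days at 5°C. Flies of D. montana were also held at -6°C for 16 h and frozen 15 min or 1 h after this ended, during recovery from chill coma, the reversible immobility of a chilled insect. D. virilis had no such groups.

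The scanner marked 72.2% to 83.1% of an array's spots as well above background and none as saturated. Each array was scaled to the 75th percentile of its probe means. Taken over single spots, the 75th percentile of the processed signal was 412.8 to 677.8 units for the 6 arrays of recovering flies. It was 661.8 to 883.2 for the rest. Of the marker lists, all 9 eye genes and both muscle genes present on the array (Mhc and sls) were detected in both species. Of 3 neuronal genes on the array, all were detected in D. montana, while para was not in D. virilis. No gene of the lists for fat body and yolk, ovary, or male germline and accessory gland was among the array's gene names, so those tissues could not be checked.

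Eip71CD was a strongly labelled gene in D. montana controls. The level is given as the log2 signal relative to the array's 75th percentile, averaged over the brighter probe of each of the 4 pairs. The 3 control pools read 2.24, 2.67 and 2.07, which corresponds to processed signals between 3006 and 4450 units and to 4.19 to 6.37 times the array's 75th percentile. The mean was 2.33 ± 0.31 (SD, n = 3). Every one of the 12 cold-treated D. montana pools read lower than the lowest control. All 768 spots of the 4 brighter probes over the 24 arrays were well above background, so none of these values is a bound.

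**Figure D1:**
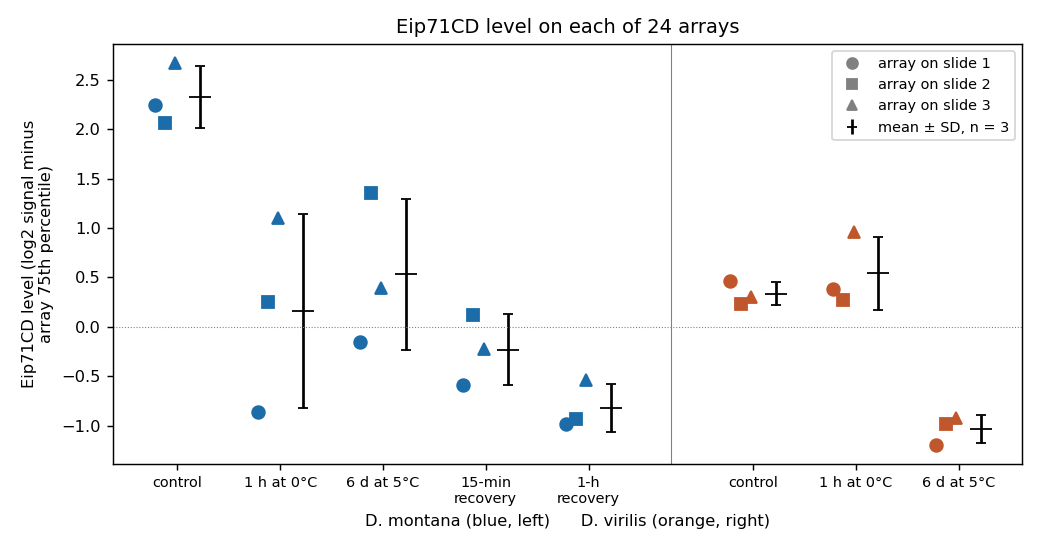
Eip71CD level (log2 signal minus the array's 75th percentile, vertical axis) on each of the 24 arrays, by group (horizontal axis); the symbol gives the slide and the black bars give mean ± SD of 3 pools. The D. montana controls lie between 2.07 and 2.67, above all 12 cold-treated D. montana arrays; in D. virilis the acclimated arrays lie below both other groups.

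After 1 h at 0°C, the D. montana pools read -0.87, 0.25 and 1.097. All lay below the controls, the nearest by 0.97, but they were spread over 1.96 log2 units. The mean was 0.16 ± 0.98 (SD, n = 3), and the log2 difference from the controls was -2.17 ± 0.40 (SE), or 4.49-fold lower. The SE is that of limma, which pools the spread over all 15 D. montana arrays and moderates it across genes. It is therefore the same for every D. montana difference, although the group SDs ran from 0.24 to 0.98. For the widely spread hardened and acclimated pools it understates the error. In this treatment 1 of 213 measured genes (0.469%) lay past the adjusted threshold and 14 had an unadjusted p under 0.05 in limma. The 1 gene is Eip71CD, for which this count shows nothing, because the same contrast was used to choose it. The next largest decreases in this treatment were -0.97 for Adh and -0.70 for cwo, neither of which passed (adjusted p = 0.218 and 0.136, limma).

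After 6 days at 5°C, the D. montana pools read -0.15, 1.35 and 0.39. The highest acclimated pool lay 0.71 below the lowest control. The mean was 0.53 ± 0.76 (SD, n = 3), a log2 difference of -1.80 ± 0.40 (SE), or 3.48-fold lower. Acclimation changed 57 of 213 genes (26.8%), and Eip71CD had the 2nd most negative difference among them all. Only desat1, a fatty acid desaturase, had a larger one with -1.86, and Adh, the alcohol dehydrogenase, followed with -1.72.

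At 15 min of recovery from 16 h at -6°C, the pools read -0.59, 0.12 and -0.23. They lay at least 1.95 below every control, with a mean of -0.23 ± 0.36 (SD, n = 3). The log2 difference was -2.56 ± 0.40 (SE), or 5.90-fold lower. This was the most negative of 213 differences, in a comparison in which 14 genes (6.57%) passed, and the next was -0.88 for spin.

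At 1 h of recovery, the pools read -0.99, -0.93 and -0.54, with processed signals between 273 and 291 units. This was the lowest group in D. montana, 2.61 below the nearest control, with a mean of -0.82 ± 0.24 (SD, n = 3). The log2 difference was -3.15 ± 0.40 (SE), or 8.86-fold lower. It was again the most negative of 213, where 6 genes (2.82%) passed, Eip71CD among them, and the next was -0.81 for na, an ion channel gene. These arrays hold RNA of whole flies, so less Eip71CD RNA per cell and fewer cells that make it cannot be told apart. The 4 D. montana differences share the same 3 control arrays. Like those of D. virilis below, they were used to choose the gene. Its ranks and its place among the genes that passed are therefore descriptions only.

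**Figure D2:**
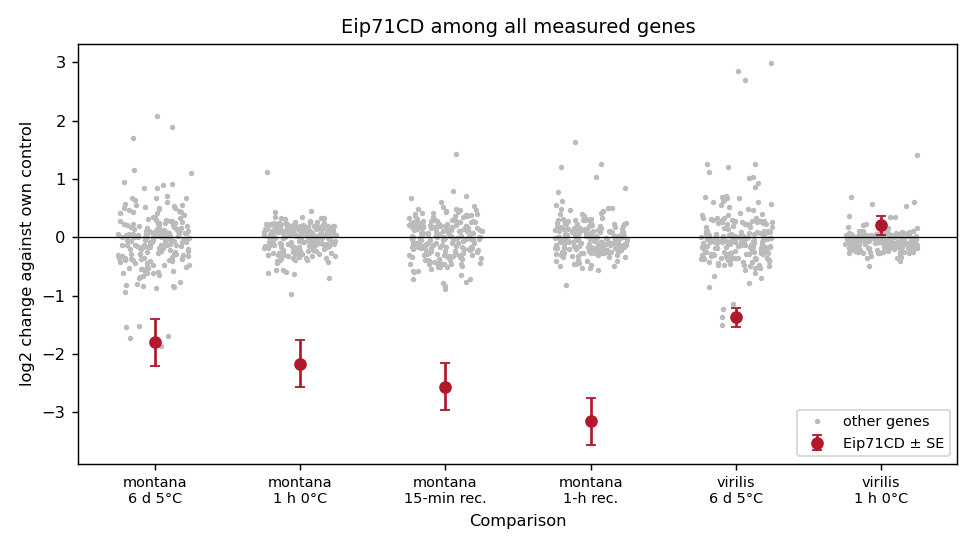
Log2 change against the species' own control (vertical axis) of every measured gene in the 6 comparisons (horizontal axis), with Eip71CD in red ± SE and the other genes in grey. Eip71CD lies at -2.17, -2.56 and -3.15 in the hardened and recovering D. montana groups, where no other gene lies below -0.97, and near the bulk of genes at 0.20 in hardened D. virilis.

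In D. virilis the control pools read 0.47, 0.24 and 0.31, with a mean of 0.34 ± 0.12 (SD, n = 3). The acclimated pools read -1.19, -0.99 and -0.92. The groups did not overlap, and the gap between them was 1.16. The mean after acclimation was -1.03 ± 0.14 (SD, n = 3), a log2 difference of -1.37 ± 0.16 (SE), or 2.58-fold lower. It was the 3rd most negative of 211 differences, after -1.50 for Cyt-b5-r and -1.37 for desat2, in a comparison in which 83 genes (39.3%) passed. The array of the second acclimated pool carried the quality mark ExtractionEvaluate. Without that array the log2 difference of Eip71CD was -1.39.

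Hardened D. virilis did not show the low values of hardened D. montana. The pools read 0.39, 0.28 and 0.96, with a mean of 0.54 ± 0.37 (SD, n = 3), and overlapped the controls. The log2 difference was 0.20 ± 0.16 (SE), or 1.15-fold higher, and it rested on the third pool: without it the difference was -0.01. In this comparison 1 of 211 genes (0.474%) passed, ninaD, a scavenger receptor gene of carotenoid uptake.

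Ordered by mean level, the D. montana groups ran from control through acclimation, hardening and 15-min recovery to 1-h recovery. The step from control to acclimation was 1.80 with no overlap. The following steps of 0.37, 0.39 and 0.59 all joined groups that overlapped, so neighbouring cold groups are not separated beyond their spread. The ends of this order did not overlap. The lowest acclimated pool read -0.15 and the highest 1-h recovery pool -0.54. In D. virilis hardened flies stood 0.20 above controls with overlap, and acclimated flies were the lowest group.

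The difference between the recovery times was not itself used to choose the gene, but both groups' differences from the controls were, so its test is not independent of the choice. Eip71CD differed between 1 h and 15 min of recovery by -0.59 ± 0.40 (SE) on the log2 scale, with a 95% confidence interval from -1.44 to 0.27. The difference did not pass (adjusted p = 0.76 in limma with Benjamini-Hochberg adjustment over 213 genes), and the highest 1-h pool lay 0.05 above the lowest 15-min pool. The genes that passed in this comparison were 4 of 213 (1.88%), all higher at 1 h: hsr-omega, a heat-induced nuclear RNA, by 1.83 ± 0.18, the chaperone Hsp68 by 1.25 ± 0.15, the co-chaperone DnaJ-1 by 1.24 ± 0.14 and the BAG-domain co-chaperone stv by 0.82 ± 0.13 (log2 ± SE). With another background correction, normexp, 1 gene passed.

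The acclimation differences of the species, -1.80 in D. montana and -1.37 in D. virilis, were -0.43 ± 0.51 (SE) apart. The hardening differences, -2.17 and 0.20, were -2.37 ± 0.51 (SE) apart. This was the most negative species difference of the 209 genes with a probe measured in both species alike, and without the lowest hardened D. montana pool, replicate 1, it was -1.86. Both contrasts had been used in choosing the gene, so no test is given. The hardening comparison between species was added after the values were seen. The SEs here rest on a spread shared by both species, although the pooled SD was 0.61 in D. montana and 0.24 in D. virilis. The named probes carry the prefix Dmon. A probe can match the transcripts of both species unequally, so levels were not compared between species, and an unequal match could also dampen the changes read in D. virilis.

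The pools of hardened and acclimated D. montana differed more for Eip71CD than for nearly all other genes. In hardened D. montana its SD of 0.98 was the highest of 213 genes, where the median gene had 0.16 and the next, na, had 0.68. In acclimated D. montana its SD of 0.76 ranked 3rd, behind 0.87 for Adh and 0.84 for amd, against a median of 0.15. In the 1-h recovery group it ranked 87th, with 0.24 against a median of 0.21, and in D. montana controls it ranked 11th, with 0.31 against 0.11. Hardened D. virilis had a wide spread too: its SD of 0.37 ranked 10th of 211, against a median of 0.10. In D. virilis controls it ranked 105th, with 0.12 against a median of 0.12. The ranks depended on the scaling. With spike-in scaling Eip71CD ranked 1st in hardened and in acclimated D. montana and 2nd in hardened D. virilis. It then ranked 31st in acclimated D. virilis, where it was 79th before. The 1-h recovery group had rank 46, D. montana controls 26 and D. virilis controls 200. Within an array, the SD over the 8 spots of a probe had a median of 0.05 and was at most 0.13, which covers spotting and reading error alone and no difference in labelling, array or slide.

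**Figure D3:**
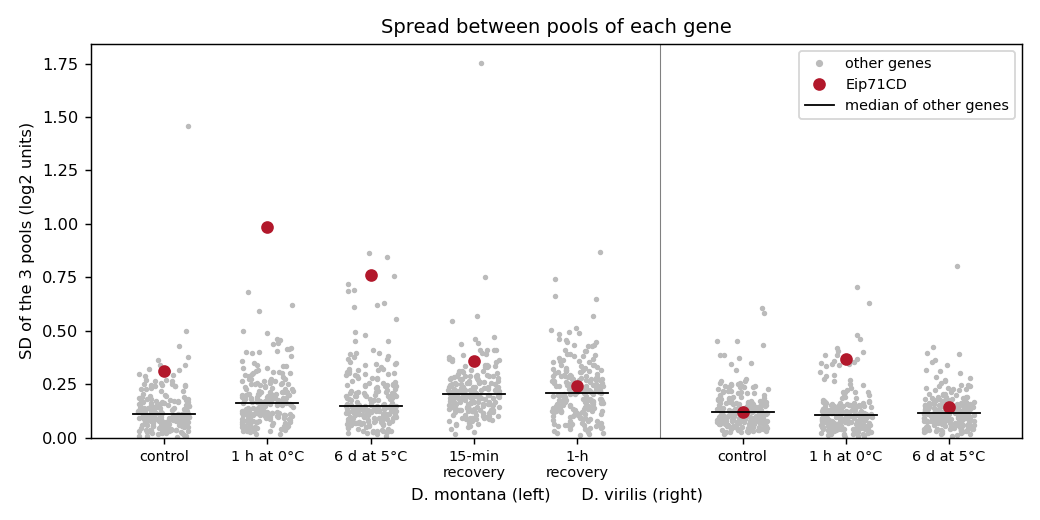
SD of the 3 pools (log2 units, vertical axis) of every gene in each of the 8 groups (horizontal axis), with Eip71CD in red and the median of the other genes as a black line. In hardened D. montana Eip71CD stands above all other genes at 0.98, and in hardened D. virilis it lies at 0.37; in D. virilis controls and acclimated flies it lies near the median.

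Some other values moved with these pools, though not alike in every group. In hardened D. montana the mean level of the 9 eye genes was 0.76, 1.03 and 1.32 in replicates 1 to 3, and that of the 2 muscle genes was 1.76, 2.09 and 2.17, so both lists were lowest in the pool where Eip71CD was lowest. The neuronal genes were lowest there too, at -3.75. At 15 min of recovery, replicate 1 had the lowest Eip71CD, -0.59, but the highest eye and muscle levels, 1.46 and 2.28. At 1 h of recovery, replicate 1 was lowest for Eip71CD, eye and muscle genes, at -0.99, 1.01 and 1.93. The control pools had 1.39, 1.51 and 1.04 for the eye genes and 2.23, 1.94 and 2.16 for the muscle genes. The third control and the second hardened pool thus had eye levels of 1.04 and 1.03, while their Eip71CD levels were 2.07 and 0.25. In hardened D. virilis the eye genes read 0.79, 0.68 and 0.07, and the pool with the lowest eye signal had the highest Eip71CD. That pool was also the lowest for the neuronal genes, at -3.39. In acclimated D. virilis the eye genes read 1.26, 1.00 and 1.12, above the 0.59 to 0.87 of the controls, and the muscle genes read 1.99 to 2.38 against 1.59 to 1.88.

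In acclimated D. montana the eye, muscle and neuronal genes were all lowest in replicate 1, with 1.19, 2.11 and -4.17, and Eip71CD was also lowest there. The mean level of the 3 neuronal genes was -3.80 to -3.63 in D. montana controls. It lay lower without overlap after acclimation, at -4.17 to -3.90, and at 15 min of recovery, at -4.09 to -3.99. After hardening it was -3.75 to -3.60 and at 1 h of recovery, where Eip71CD was lowest, -3.94 to -3.69, both overlapping the controls. In D. virilis the 2 detected neuronal genes, cac and Caki, read -3.39 to -2.96 in controls, -3.39 to -3.19 after hardening and -3.90 to -3.77 after acclimation, the last without overlap. The part of tissue composition in the values of Eip71CD was not tested.

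The arrays lay on 3 slides, each with 1 array of every group. Slide 1 held the D. montana array below its group mean in 5 of 5 groups, on average by -0.46. Within slides 1, 2 and 3, the difference from the control was -3.11, -1.82 and -1.57 for hardened D. montana and -2.40, -0.71 and -2.28 for acclimated D. montana. It was -2.84, -1.95 and -2.90 at 15 min and -3.23, -2.998 and -3.21 at 1 h of recovery. Acclimated D. virilis differed by -1.66, -1.22 and -1.23 within slides. Each of these 15 differences was negative. They reuse the same control arrays and belong to the comparisons used to choose the gene, so their common sign is a description only. Hardened D. virilis had -0.08, 0.04 and 0.65. The 1-h recovery array lay below the 15-min array on every slide, by -0.39, -1.05 and -0.31, which the test over samples above did not separate from the spread between pools.

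The 4 brighter probes gave nearly the same changes. They ranged from -3.18 to -3.11 at 1 h of recovery, from -2.61 to -2.53 at 15 min, from -2.20 to -2.14 after hardening and from -1.84 to -1.77 after acclimation in D. montana. In D. virilis they ranged from -1.46 to -1.25 after acclimation and from 0.20 to 0.21 after hardening. The opposite orientation of the same fragment was dimmer by 4.48 log2 units on average, 4.86 in D. montana and 3.85 in D. virilis, yet 715 of its 768 spots (93.1%) were well above background. Its 4 probes moved the same way in all 6 comparisons. Their changes were mostly smaller and varied more, from -3.12 to -1.01 at 1 h of recovery and from -0.97 to -0.61 in acclimated D. virilis. In the dimmer orientation, 2 probes were well above background on all 24 arrays, and the other two on 18 and 21.

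**Figure D4:**
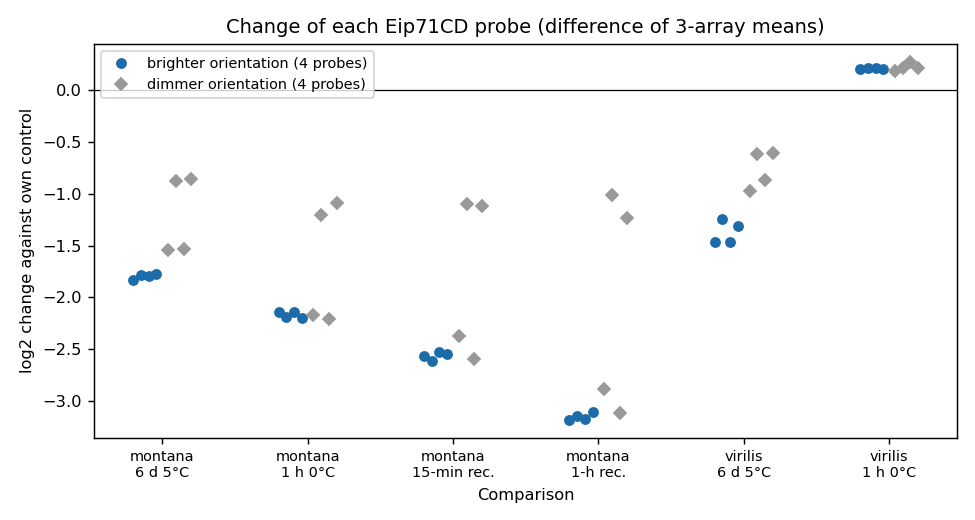
Log2 change against the species' own control (vertical axis) of each Eip71CD probe in the 6 comparisons (horizontal axis), with the 4 brighter-orientation probes in blue and the 4 dimmer ones in grey; points are differences of 3-array means. The blue points lie within 0.22 log2 units of each other in every comparison, and the grey ones spread over up to 2.10.

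Few genes of the pathways around methionine sulfoxide reduction were on the array. Of the 11 genes of methionine sulfoxide and methionine metabolism and of the 31 of ecdysone response and synthesis, 0 were present besides Eip71CD, so neither the partner enzyme SelR nor the ecdysone receptor could be read. Of 33 genes of thiol redox and antioxidant defence, 2 were present: the superoxide dismutase Sod and the catalase Cat. Of 14 genes of insulin and stress signalling, 6 were present: the insulin receptor InR, the translation inhibitor 4E-BP encoded by Thor, the glycogen synthase kinase sgg, and the stress kinases bsk (JNK), p38a and p38b. These 8 genes were measured in both species.

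Neither antioxidant enzyme passed the test in any comparison. Sod read 5.76 to 5.82 in D. montana controls and 5.26 to 5.55 after acclimation, a log2 difference of -0.35 ± 0.13 that did not pass (adjusted p = 0.0508, limma). Cat differed by -0.34 ± 0.15 after acclimation (adjusted p = 0.116, limma). In the recovery groups, where Eip71CD stood lowest, Sod differed by 0.22 ± 0.13 and 0.09 ± 0.13 and Cat by 0.15 ± 0.15 and 0.00 ± 0.15 at 15 min and 1 h (log2 ± SE). In D. virilis the acclimation differences were -0.15 ± 0.08 for Sod and 0.02 ± 0.10 for Cat.

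Thor moved opposite to Eip71CD in D. montana. Its control pools read 3.33, 3.51 and 3.29, and its 1-h recovery pools 4.65, 4.56 and 4.53. The groups did not overlap, and the log2 difference was 1.21 ± 0.14 (SE; adjusted p = 2.26e-05, limma). Thor also rose after acclimation, by 0.84 ± 0.14 (adjusted p = 0.000322, limma), and at 15 min of recovery, by 0.71 ± 0.14 (adjusted p = 0.00835, limma; 0.0507 without the second 15-min pool and 0.0563 without the first control). With normexp background correction in place of the processed signal, none of these Thor calls held (adjusted p = 0.202 at 1 h, 0.286 after acclimation and 0.547 at 15 min, limma), and spike-in scaling ended the 15-min call (adjusted p = 0.173, limma). After hardening it differed by 0.43 ± 0.14 (adjusted p = 0.218, limma). In D. virilis it differed by 0.29 ± 0.17 after acclimation and -0.32 ± 0.17 after hardening, and neither passed.

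Of the kinases and receptors, p38a fell after D. montana acclimation by 0.85 on the log2 scale (SE 0.19, adjusted p = 0.00273, limma), from 1.06 to 1.20 in controls to -0.15 to 0.59; with normexp its adjusted p was 0.0747. InR, a dim gene at -4.13 to -3.83 in controls, read -5.15 to -4.33 at 15 min of recovery, a difference of -0.76 ± 0.18 (adjusted p = 0.0244, limma). That call was lost without any 1 of 4 of the arrays compared and with both orientations averaged (-0.38, adjusted p = 0.0527, limma), and with normexp the value was 0.70. In D. virilis sgg differed by -0.26 ± 0.08 after acclimation (adjusted p = 0.0236, limma), a call lost without any 1 of 3 of the arrays, with normexp (adjusted p = 0.372), with spike-in scaling (0.296) and with both orientations averaged (0.782, a change of -0.03). In the 8 genes together, 2 passed after D. montana acclimation (1 higher, 1 lower, against 26.8% of all genes), 2 at 15 min (1 higher, 1 lower, against 6.57%) and 1 at 1 h (against 2.82%). After D. virilis acclimation 1 of the 8 passed, against 39.3% of all genes. After hardening 0 of the 8 passed in limma in D. montana (against 0.469%) and 0 in D. virilis (against 0.474%); at an unadjusted p under 0.05 there were 1 and 0 of the 8, against 14 and 22 of all genes. The median change of the 8 was -0.28 after D. montana acclimation, against 0.00 over all genes, and -0.04 at 1 h of recovery, against -0.05.

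**Figure D5:**
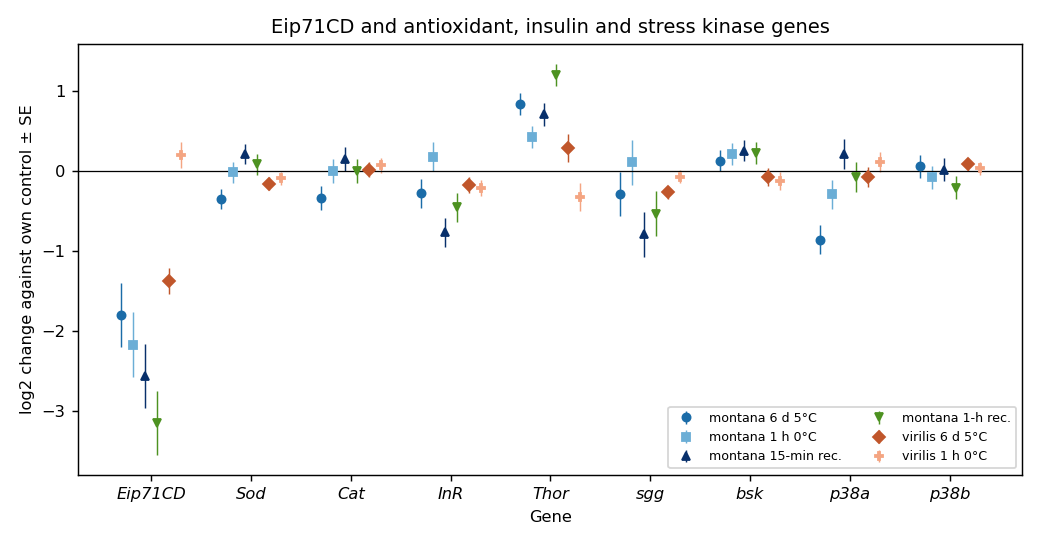
Log2 change against the species' own control ± SE (vertical axis) of Eip71CD and of the 8 measured antioxidant, insulin and stress kinase genes (horizontal axis), with 1 symbol per comparison. Eip71CD reaches -3.15 and Thor 1.21 at 1 h of recovery in D. montana, while Sod and Cat stay between -0.35 and 0.22.

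Likeness to Eip71CD was measured as the root mean square difference between a gene's 6 changes and those of Eip71CD, over 209 other genes, measured in each species by probes that need not be the same. A gene with no change at all would lie 2.09 away, and the median gene lay 2.07 away. The nearest were Adh at 1.72, the clock repressor gene cwo at 1.73, spin, which encodes a lysosomal carrier, at 1.73, the calcium channel gene cac at 1.75 and the kinase gene mnb at 1.77. Adh shared the low values in acclimated and hardened D. montana, with -1.72 and -0.97, but differed by 0.18 at 15 min and -0.40 at 1 h of recovery. The changes of cwo lay between -0.70 and -0.05 in all 6 comparisons.

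With the sign turned, Thor lay nearest at 1.43, closer than any gene with the sign kept. After it came Hsp68 at 1.63, stv at 1.64, the proneural gene ato at 1.66 and b, which encodes an aspartate decarboxylase, at 1.69. Hsp68 rose by 1.16 ± 0.15 after D. montana acclimation and by 1.26 ± 0.15 at 1 h of recovery (adjusted p = 2.69e-05 and 2.26e-05, limma), but differed by 0.00 ± 0.15 at 15 min, when Eip71CD already stood at -2.56. The stv transcript rose by 0.89 ± 0.13, 1.03 ± 0.13 and, in acclimated D. virilis, 0.69 ± 0.09 (adjusted p = 0.000102, 3.14e-05 and 0.000238, limma). Hsp68 and stv were picked by their changes in these same comparisons, so their p-values add no support to the likeness. With normexp 2 genes passed at 1 h of recovery, and whether Hsp68 or stv was among them is not given here. These distances are dominated by the size of the changes of Eip71CD. Measured over the 24 arrays instead, with each species centred on its own mean, 3 of the 5 nearest genes were the same with the sign kept (cwo, spin and mnb) and 3 of 5 with it turned (Thor, Hsp68 and stv). On that measure Adh ranked 174th, at 1.14, farther than the 1.03 of a gene with no change, and cac ranked 8th. With the sign turned ato ranked 59th, at 1.02, and b 208th, at 1.38, so the likeness of Adh, ato and b depends on the measure. A dim gene at -4.46 in D. montana controls, ato passed in no comparison. The pools of b differed widely, with an SD of 1.46 in D. montana controls and 1.75 at 15 min of recovery.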

How the data were processed

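Spot intensity values were deposited by the authors as output of Agilent Feature Extraction 10.7.1.1 from 24 one-colour (Cy3) arrays, per the file headers; background was already subtracted from the processed signal, array by array, with no scaling between arrays. 600 ng of RNA per pool was labelled together with spike-in RNA, per the labels' protocols. The authors also deposited a table of 1850 intensity values per array, used as an alternative after its rows were matched to probes in name order (correlation 0.996 to 0.9996 with each array's probe means); its column medians are 69.4 to 72.7, its scale is linear, and how it was normalized is not stated in the labels or headers. limma is named, with no role, in the submitters' processing notes.

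A probe's value is the mean log2 processed signal of its 8 spots, without spots marked as outliers (87 to 261 of 14800 non-control spots per array), minus the 75th percentile of all such probe means on that array. The brighter orientation of each pair over all arrays was kept. Probes were averaged per gene where some group had them well above background on its 3 arrays, leaving 213 D. montana and 211 D. virilis genes. The linear models (limma 3.58.1, lmFit and eBayes, R 4.3.3) used 15, 9 or, between species, 24 arrays, with Benjamini-Hochberg adjustment over all genes and a threshold of 0.05. The procedure was run on simulated data for the comparison of the recovery times alone. Each simulated gene had the same spread in every group, unlike Eip71CD here, so the simulation does not cover the other comparisons. Replicates are separate pools, per the labels; the number of arrays limits the precision.

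Eip71CD and the gene lists were chosen with earlier results of these data known. Named genes are the measured members of 4 lists, and the 5 nearest to Eip71CD with the sign kept and turned; genes with the next largest falls, and those passing where 4 or fewer passed, were named after their values were seen. Names were matched for 160 of 218 genes to the table of assembly ASM3504440v1. The files hold no mean signal column, so the normexp background correction (offset 50) used the median signal and median background. Sequences of the probes, transcript and protein were not used here.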

Additional observations from a re-analysis of the deposited data

How the results depend on the processing

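Over 10 other settings (background, normalization, orientation, filter, blocks, array weights, the authors' values, slide 1 left out; the slide settings were chosen after seeing the data), no Eip71CD difference changed direction. The ranges were -1.84 to -1.50 (D. montana acclimation), -2.37 to -1.70 (hardening), -2.68 to -2.18 (15 min), -3.31 to -2.60 (1 h), -1.39 to -1.07 and 0.08 to 0.35 (D. virilis acclimation and hardening), and -0.69 to -0.26 between recovery times, where the adjusted p ran from 0.511 to 0.998. Averaging both orientations gave -1.07 in acclimated D. virilis. Leaving out 1 array in turn gave -2.21 to -1.46, -2.64 to -1.65, -2.74 to -2.38, -3.29 to -2.98, -1.43 to -1.29, -0.01 to 0.34 and, between recovery times, -0.77 to -0.41 (adjusted p 0.491 to 0.943). The species differences ran from -0.84 to -0.09 (acclimation) and -2.84 to -1.86 (hardening). Spike-in scaling moved the median of all genes by -0.20, -0.12 and -0.16 in hardened and recovering D. montana, where Eip71CD differed from that median by -2.20, -2.56 and -3.10.

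Counts of called genes depended on the setting. With normexp they were 11, 0, 1, 2, 16, 0 and 1 (D. montana acclimation, hardening, 15 min and 1 h, D. virilis acclimation and hardening, 1 h against 15 min), and normexp turned InR at 15 min to 0.70 (adjusted p = 0.559, limma). The calls of Thor, p38a and sgg were lost with it too. Spike-in scaling gave 26, 2, 5, 42 and 4 (D. montana acclimation, hardening and 15 min; D. virilis acclimation and hardening), and array weights, whose fit stopped before full convergence, gave 95, 9, 31, 19 and, in hardened D. virilis, 12. Hardened D. virilis had 2 with quantile normalization and with the authors' values, and 0 with both orientations. Without 1 array, D. montana acclimation had 34 to 45, hardening 0 to 2, 15 min 1 (without its second pool) to 30 (without its first), and hardened D. virilis 0 to 7. The cause was not tested.

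Replicate numbers followed the slides, except that D. montana control replicates 2 and 3 lay on slides 3 and 2. Deviations of same-numbered D. montana samples correlated over genes at -0.43 to 0.51, with a median of 0.07. This range does not exclude an effect shared within a slide, and the main fits used no block. With the replicate number as a block, the difference between recovery times stayed at -0.59 (adjusted p = 0.619, limma) and 27, 14 and 4 genes passed at 15 min, at 1 h and in hardened D. virilis; with the slide as a block 30, 14 and 4 did.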
